A study of Arabidopsis thaliana with 16 samples.

Results

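In Arabidopsis thaliana seedlings, 91 genes of the 32548 measured were near silent in the wild type and in 6 chromatin mutants and gave RNA in the mutant hda6. They were chosen by the means of the 2 deposited libraries of each genotype. The mean had to be under 5 in the wild type Col-0, at least 20 in hda6, and under 5 in each of hda19, sant1234, mbd124, esant12, arid14 and rxt3. The rule therefore read the values of every genotype, so the levels of these genes are described here without a test. They made up 0.28% of all genes and 0.763% of the 11932 genes with a Col-0 mean under 5. In all, 153 of those 11932 genes reached 20 in hda6, and the other 62 were at 5 or more in at least 1 other mutant.

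RNA came from whole seedlings, 14 days old, grown on MS plates in long days, the light phase of 16 h at 23 °C and the dark phase of 8 h at 22 °C. The genotypes were wild type Col-0, hda6(-/-), hda19(-/-), rxt3(-/-), sant1(-/-);sant2(-/-);sant3(-/-);sant4(-/-), mbd1(-/-);mbd2(-/-);mbd4(-/-), esant1(-/-);esant2(-/-) and arid1(-/-);arid4(-/-), with 2 libraries each. The alleles, the number of plants per library and whether the 2 libraries came from separate plants are not given in the labels, so p-values here cover the spread between libraries, which may be technical. Reads were single, of 50 bp, from total RNA. The deposited values are normalised read numbers, and the whole reads recovered from them came to 19259579 to 19522197 per library, so a value of 1 stands for about 1 read. In bulk seedlings, more cells with a transcript and more transcript per cell cannot be told apart.

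HDA6 is a histone deacetylase of the RPD3 type, an enzyme that removes acetyl groups from histone tails. In Arabidopsis it is known for keeping transposons, repeated transgenes and a part of the ribosomal RNA gene copies silent, and for acting together with the DNA methyltransferase MET1, which maintains methylation at CG dinucleotides. HDA19, SANT, ESANT, ARID, MBD and RXT3 proteins are parts of, or linked to, complexes built around deacetylases of the same type.

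Because CG dinucleotides are the sites at which MET1 acts, the 250 bases before the annotated start are shown for 6 of the genes the results turn on. They are the non-coding RNA with the highest value (AT2G15555), the beta-galactosidase-like gene with the highest value of its class (AT3G44265), the Ulp1 protease gene with the highest value of its class (AT5G45570), the histidine biosynthesis gene HISN6B, and 2 near-identical repressor genes (AT2G19850 and AT3G54730). Sequences are from RefSeq, build TAIR10.1, read 5′ to 3′ on the strand of the gene, and capitals mark CG dinucleotides.
AT2G15555 (chr2:6786977-6787226, minus strand): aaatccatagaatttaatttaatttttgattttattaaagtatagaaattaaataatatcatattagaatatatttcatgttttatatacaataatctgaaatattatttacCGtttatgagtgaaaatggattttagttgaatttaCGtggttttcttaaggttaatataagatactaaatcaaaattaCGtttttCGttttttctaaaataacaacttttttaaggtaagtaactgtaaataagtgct
AT3G44265 (chr3:15956247-15956496, minus strand): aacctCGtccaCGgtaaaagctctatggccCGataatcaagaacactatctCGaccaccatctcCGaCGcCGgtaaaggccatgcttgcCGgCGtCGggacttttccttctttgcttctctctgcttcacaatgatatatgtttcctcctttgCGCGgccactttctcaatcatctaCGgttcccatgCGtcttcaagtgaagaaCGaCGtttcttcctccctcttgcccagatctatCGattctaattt
AT5G45570 (chr5:18471248-18471497, plus strand): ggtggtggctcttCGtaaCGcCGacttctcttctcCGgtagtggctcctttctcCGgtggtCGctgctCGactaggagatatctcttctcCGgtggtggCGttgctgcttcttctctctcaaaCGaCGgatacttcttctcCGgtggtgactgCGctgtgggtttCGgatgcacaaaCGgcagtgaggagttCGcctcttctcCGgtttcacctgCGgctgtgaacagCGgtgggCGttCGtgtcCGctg
HISN6B (chr1:27066698-27066947, plus strand): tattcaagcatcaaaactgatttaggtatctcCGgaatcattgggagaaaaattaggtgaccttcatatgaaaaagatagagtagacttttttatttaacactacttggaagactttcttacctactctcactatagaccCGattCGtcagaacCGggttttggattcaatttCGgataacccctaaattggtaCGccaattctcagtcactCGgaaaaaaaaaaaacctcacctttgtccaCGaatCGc
AT2G19850 (chr2:8568319-8568568, plus strand): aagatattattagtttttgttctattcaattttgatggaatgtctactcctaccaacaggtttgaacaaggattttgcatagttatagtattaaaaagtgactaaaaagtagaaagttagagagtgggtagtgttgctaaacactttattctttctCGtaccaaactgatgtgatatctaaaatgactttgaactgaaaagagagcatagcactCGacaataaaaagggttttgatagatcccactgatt
AT3G54730 (chr3:20258753-20259002, plus strand): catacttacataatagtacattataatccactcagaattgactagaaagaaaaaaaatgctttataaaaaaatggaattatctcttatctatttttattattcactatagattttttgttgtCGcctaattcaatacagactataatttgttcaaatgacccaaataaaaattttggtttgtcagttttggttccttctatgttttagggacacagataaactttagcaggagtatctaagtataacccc
These windows held 4 CG dinucleotides in AT2G15555, 17 in AT3G44265, 22 in AT5G45570, 9 in HISN6B, 2 in AT2G19850 and 1 in AT3G54730. All 6 genes were on in both hda6 libraries, so their upstream sequences ran from few CG dinucleotides to many. Over the 91 genes the median was 5 CG dinucleotides per 250 bases, with quartiles of 3 and 8. The median over the 32546 genes with a full window was also 5, with quartiles of 3 and 7. At least 15 CG dinucleotides stood in 5 of the 91 windows (5.49%) and in 2.23% of all windows. The search counted the letters CG, which read the same on both strands, and says nothing about methylation, which was not measured here.

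HDA6 itself was measured first as a check of the labels. Its value was 429.5 and 424.6 in Col-0, 518.8 and 450.2 in hda6, and between 427.3 and 543.8 in the other 12 libraries. The log2 fold change in hda6 against Col-0 was 0.18 ± 0.08 (SE), with a limma adjusted p of 0.14. The HDA6 transcript was thus not lower in the hda6 libraries, and without the allele its level checks nothing about the lesion.

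The 91 genes gave 14285 and 14391 reads in the hda6 libraries, 0.0742% and 0.0745% of all reads. In each of the other 14 libraries all 91 together gave between 15 and 68 reads. Col-0 had 20 and 34 such reads, hda19 15 and 31, rxt3 17 and 19, and arid14, the highest, 68 and 58. For all 91 genes the lower hda6 library lay above every other library, a separation that the choice of the genes largely fixes. The lowest single hda6 value was 14.3 and the highest single value elsewhere was 8.98, for different genes.

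**Figure D1:**
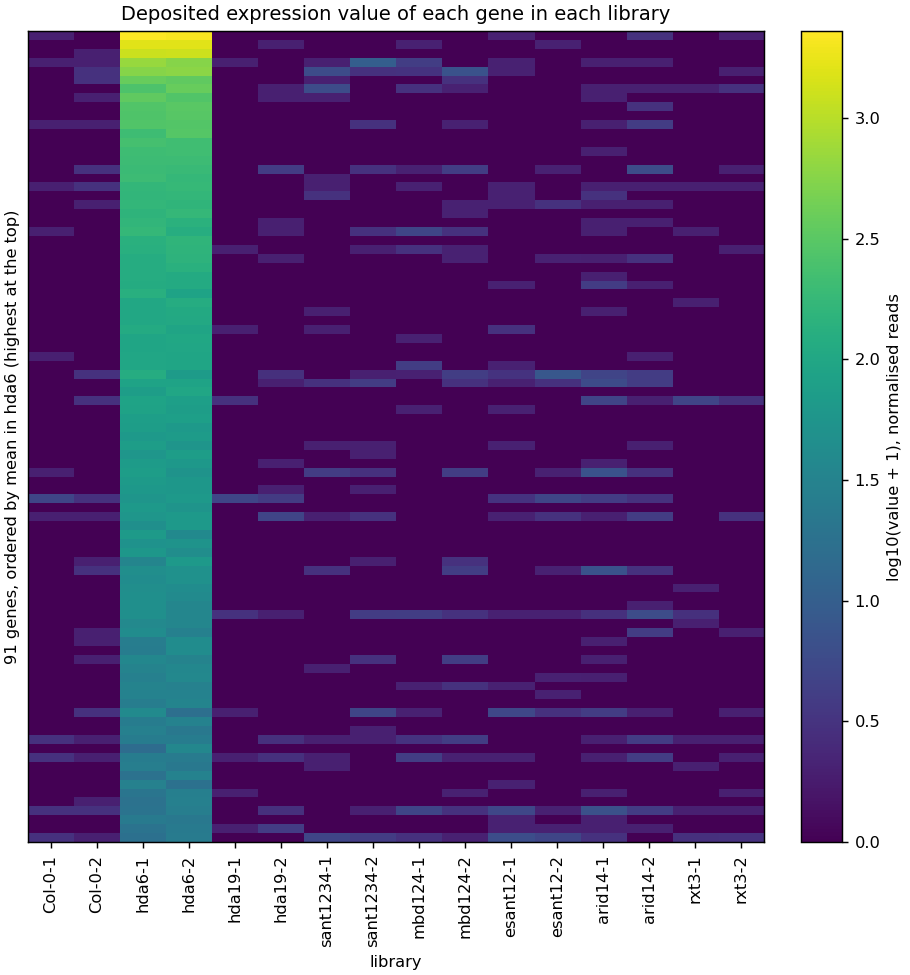
Each row is 1 of the 91 genes and each column 1 of the 16 libraries, with colour giving log10 of the deposited value plus 1. The 2 hda6 columns are high in every row by the choice of the genes, and the remaining columns hold scattered values of a few reads.

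Of the 91 genes, 26 had no read in any of the 14 other libraries, and 56 had at most 1 read in any of them. In Col-0, 63 had no read in either library. Against a floor of 3 reads per library, these 63 were at least 6.88-fold to at least 535-fold higher in hda6, with a median bound of at least 22.1-fold. AT2G13547, an uncharacterized protein gene, came closest to the upper limit elsewhere, with 0.99 and 8.98 in sant1234, 0.994 and 0.999 in Col-0 and 699.5 and 569 in hda6. Its mean of 4.99 in sant1234 rested on 1 library. The next highest means elsewhere were 4.62 for AT1G27580, an F-box protein gene, and 4.6 for the non-coding RNA AT1G06883, both in esant12.

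In hda6 the 91 means ran from 20.1 to 2204, with a median of 66.4 and quartiles of 34.5 and 147. Means of 100 or more were seen for 34 genes and of 500 or more for 5, while 32 lay under 50. The 3 highest genes held 35.1% of the summed level. Per kb of annotated exon, the 90 genes with exons of at least a read's length had a median of 105 in hda6. The median over the 19040 genes of the table at 20 or more in hda6 was 185 per kb, and 26 of the 90 genes reached it.

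The 2 hda6 libraries gave alike values. The ratio of library 1 to library 2 had a median of 0.983, and 80 of the 91 genes differed by no more than 1.5-fold. The widest ratios were 0.409 for AT3G43833 (14.3 and 34.9) and 2.48 for AT5G23115 (39.5 and 16), both uncharacterized, and 0.502 for the non-coding RNA AT2G07213 (32.6 and 64.9). These are genes of few reads. AT5G23115 is annotated with an exon of 29 bases, shorter than a read, so no level per length is given for it.

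**Figure D2:**
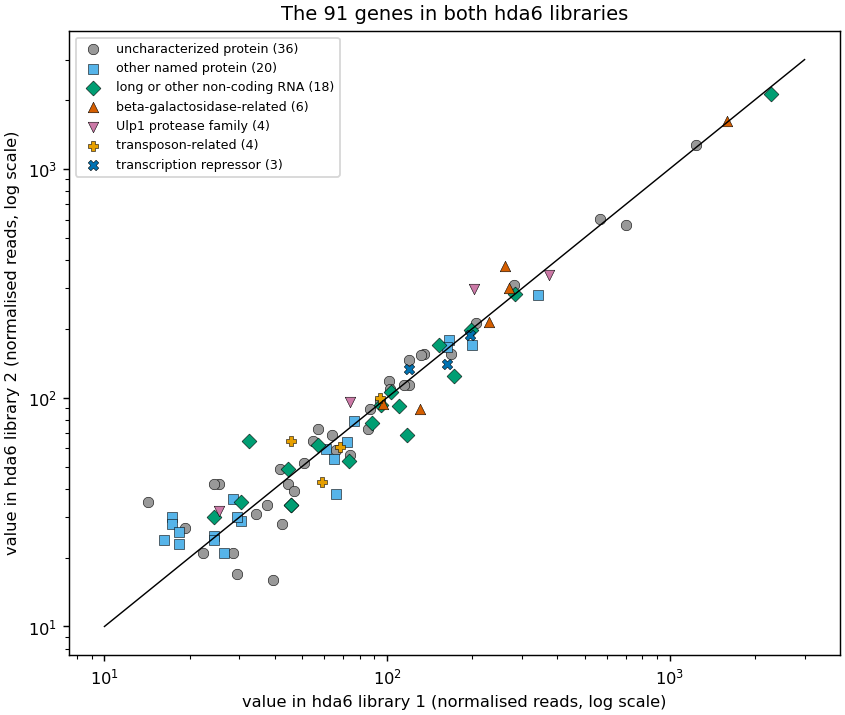
Each point is 1 of the 91 genes, with its value in hda6 library 1 on the horizontal and in library 2 on the vertical axis, both on log scales, and with colour and shape giving the class of the annotated product. The line marks equal values; genes scatter around it most at the low end, and all classes but the transposon-related genes hold values over 100.

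At the limit of 20 in hda6, the genes with the lowest hda6 means that passed were AT1G27580 (20.1), APD3, a RING/U-box protein gene (20.6), and AT1G35215 (21.6). Just under the limit lay the disease resistance gene AT5G47260 (19.7) and the uncharacterized AT3G29570 (19.6) and AT3G29080 (19.6), all with no signal elsewhere. AT4G03930, an invertase inhibitor family gene, and AT4G19630, a winged-helix factor gene, were left out for means of 5.40 in hda19 and 5.48 in sant1234. AT1G36675, a glycine-rich protein gene with 139 in hda6, was left out for a mean of 5.95 in arid14. No gene failed the rule by its Col-0 mean alone.

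By annotated product the 91 genes were 36 uncharacterized proteins, 20 other named proteins, 18 non-coding RNAs, 6 beta-galactosidase-related proteins, 4 Ulp1 protease family proteins, 4 transposon-related proteins and 3 proteins named transcription repressor. The wording of these classes was chosen with the members in view. Uncharacterized proteins made up 39.6% of the 91 genes, 19.4% of the 62 genes on in hda6 and another mutant, and 13.3% of the 6316 detected genes with a Col-0 mean under 5. Non-coding RNAs were 19.8%, 11.3% and 23.4% of the same groups. None of the 62 genes belonged to the beta-galactosidase-related, Ulp1, transposon-related or repressor classes, which are small everywhere: they made up 0.206%, 0.095%, 0.744% and 0.0633% of the detected genes with a Col-0 mean under 5.

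Among the non-coding RNAs, AT2G15555 had the highest value of all 91 genes. Its value was 2289 and 2119 in hda6, 0.995 and 0 in Col-0, and at most 1.99 in every other library. AT4G05275 followed with 283 and 284.5 and AT2G04605 with 198 and 197.7 in hda6. The 18 non-coding RNAs had a median hda6 mean of 88.2, and 3 of them had no read outside hda6. AT2G04655, with 152 and 169.7 in hda6, overlaps the gene AT2G03965 on the opposite strand by 669 bases. AT2G03965 stood at 3369 and 3521 in hda6 and 2.99 and 0.999 in Col-0, and it fell outside the rule for 14.4 and 3.09 in mbd124. Since the strand setting of the counting is not given, reads from the 399 exon bases that the 2 genes share cannot be told apart. In all, 13 of the 91 genes overlap a gene of the table on the other strand, and 10 of them share exon bases with it, between 13 and 627, where the same limit holds.

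Beta-galactosidases cleave terminal galactose from cell wall sugars and glycoproteins. In hda6, AT3G44265 stood at 1595 and 1612, where Col-0 had no read and no other library more than 1.03. AT4G29200 stood at 262 and 376, and AT2G06845 at 269 and 302.5. Col-0 had no read of either. AT5G01080 had 229.5 and 215, AT3G44070, a glycosyl hydrolase family 35 gene, 131 and 88.8, and AT3G24542 96.5 and 93.8. The table holds 22 genes of this class. Of the 16 others, 10 were also under 5 in Col-0, and the highest of these in hda6 was AT5G24480, with 9.14 and 9.98 against 0 in both Col-0 libraries. AT5G35760 was 9.95 and 5.99 in Col-0 and 90.3 and 78.9 in hda6, a log2 fold change of 3.29 ± 0.46 (SE; limma adjusted p = 0.00018). The silent genes of the class therefore spread from 0 to 1604 in hda6.

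Ulp1 is, in yeast, the protease that matures and removes the small modifier SUMO, and Ulp1-like sequences are known to be carried by some plant transposons. All 7 genes of this product in the table were near silent in Col-0, and 4 were on in hda6. AT5G45570 stood at 375 and 343, AT5G28810 at 203 and 298.5, AT5G28235 at 74.2 and 95.8, and AT4G08430 at 25.4 and 31.9. AT5G28810, AT5G28235 and AT4G08430 had no read in any of the other 14 libraries. Of the remaining genes, AT3G31910 had 6.09 and 4.99 in hda6, AT2G10625 2.03 and 2.0, and AT2G10260 none. The copies are alike in sequence: AT5G28235 aligns to AT5G45570 over 2050 bases at 99.4% identity and AT4G08430 over 3044 bases at 95.3%. Of the 50-base windows in the exons of AT5G45570, 22.8% occur once in the genome. The split of reads between these genes is thus uncertain.

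OFP9 belongs to the OVATE family, plant proteins known as repressors of transcription, and the other 2 repressor genes are near-identical to it. OFP9 stood at 120 and 134 in hda6 with no read elsewhere. AT2G19850 stood at 163 and 141, with at most 1 read in any other library. AT3G54730 stood at 196 and 189 in hda6, 0 and 2.0 in Col-0, and 0 and 4.98 in arid14. They lie on chromosomes 4, 2 and 3. OFP9 aligns to AT3G54730 over 1312 bases at 99.2% identity and to AT2G19850 over 1311 bases at 98.2%. In the 1000 bases before the starts of AT2G19850 and AT3G54730, no alignment of 100 bases or more was found between these 2; the nearest 250 bases are printed above. Unique 50-base windows made up 22.7% of OFP9, 50.2% of AT2G19850 and 30.4% of AT3G54730. The fourth gene of this product, AT4G04025, had 0.991 and 2.998 in Col-0 and 1.02 and 0.998 in hda6.

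**Figure D3:**
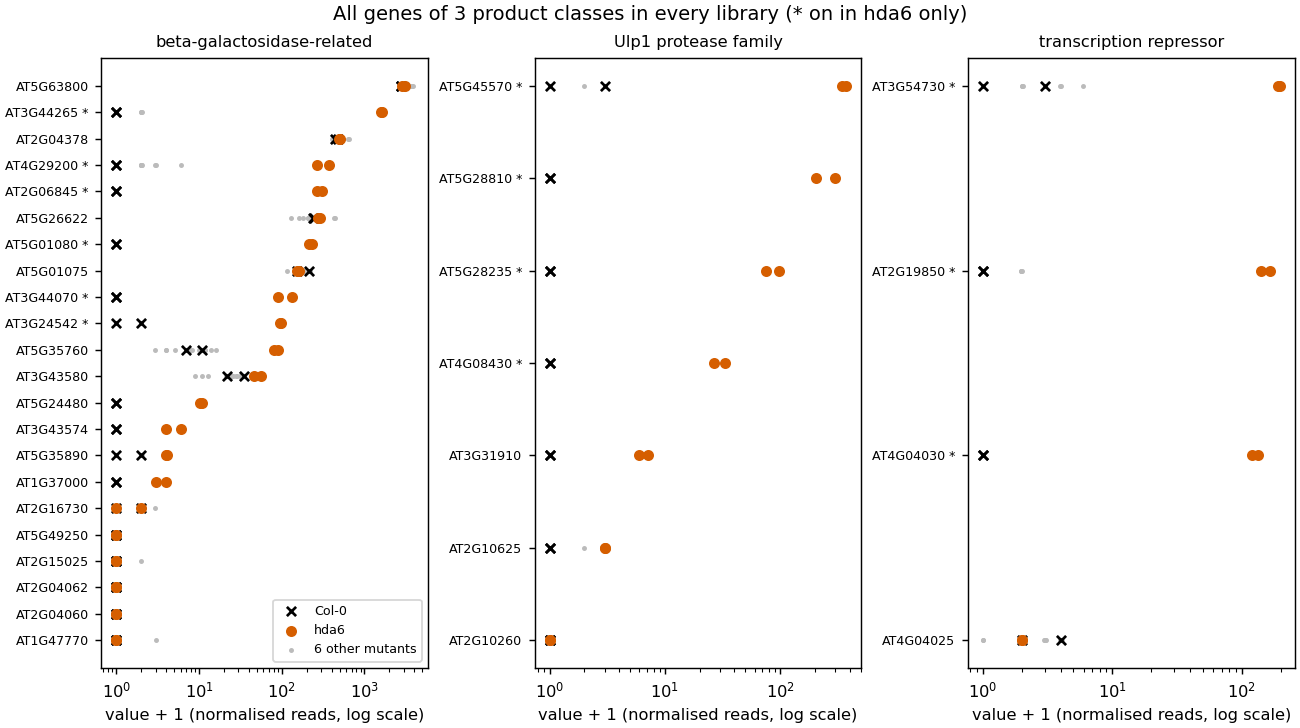
All genes of 3 product classes are shown on the vertical axis, and their value plus 1 in each library on a log scale, with hda6 in orange, Col-0 as crosses and the 6 other mutants as small grey points; stars mark the genes on in hda6 only. In each class, starred genes have hda6 values well apart from all other libraries, and several unstarred silent genes stay at or near 0 in hda6 too.

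Among the named proteins, HISN6B encodes a histidinol-phosphate aminotransferase of histidine synthesis and is known in Col-0 as an epigenetically silenced copy of HISN6A. HISN6B stood at 165.5 and 179 in hda6, 0.993 and 2.0 in Col-0, and at most 1.03 in every other library. HISN6A, listed in the annotation as HPA1 (AT5G10330), which aligns to it over 2219 bases at 99.5% identity, was expressed in all 16 libraries at 111 to 165. In hda6 HISN6A had 131 and 119 and in Col-0 165 and 125, a log2 fold change of -0.20 ± 0.14 (SE; limma adjusted p = 0.32), which was 0.0 without Col-0 replicate 1. In HISN6B, 18.1% of 50-base windows are unique, so some reads of either gene could have been assigned to the other. AT5G03090, annotated as Mto 1 responding down, had 343 and 280.5 in hda6 and 1 read in Col-0, the highest mean of the named proteins. The 20 named proteins had the lowest median of any class, 30.9 in hda6.

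The 4 transposon-related genes are 2 Ta11-like non-LTR retrotransposons, which copy themselves through an RNA, a retrotransposon ORF-1 protein and a reverse transcriptase-like protein. AT3G43837, the last of them, had 94.4 and 99.8 in hda6, and AT2G41590 had 68 and 60.9. AT3G30820 had 45.8 and 64.9, and AT2G16676 58.8 and 42.9. None had a read in Col-0. The table holds 103 genes with such a product, and these 4 are a small part of them. The class made up 4.396% of the 91 genes and 0.316% of all genes. Among the 6316 detected genes with a Col-0 mean under 5 it was 0.744%. These shares were not tested against each other. The closest matches of AT3G43837, AT2G41590 and AT2G16676 are annotated as pseudogenes, and that of AT3G30820 as a gene. The match of AT3G43837, AT4G03923, is not in the table, so the 103 leave out related loci.

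The uncharacterized genes held several of the highest values. AT5G41660 stood at 1239 and 1264 in hda6, with 1 read in the other 14 libraries together. AT5G15360 had 566 and 601, and AT4G07965 282 and 311.5. AT5G15360 lies in a stretch where 1.45% of neighbouring loci are pseudogenes and AT4G07965 in one where 66.7% are. Near-identical copies, of at least 95% identity over at least 500 bases, were found for 13 of the 91 genes. AT2G40955, with 74.1 and 55.9 in hda6, aligns to AT4G15096 over 2391 bases at 99.7%, and AT4G15096 had 12.2 and 11.0 in hda6 and 0 elsewhere. APD3 aligns to AT2G38195 over 3041 bases at 99.0%, and AT2G38195 had 3.06 and 7.99 in hda6. AT1G27580 aligns to AT1G27540 over 1160 bases at 97.2%, and AT1G27540 was at 211 to 356 in all libraries. Under 90% of windows were unique for 20 of the 90 genes measured, 22.0% of the 91, against 9.68% of the 62 genes on in hda6 and another mutant and 6.86% of the table.

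The rule did not use position, and the genes lay in surroundings rich in pseudogenes. Within 100 kb on either side, the median share of annotated loci that are pseudogenes was 26.9% for the 91 genes. It was 5.13% for the 62 genes on in hda6 and another mutant, 3.87% for the 6316 detected genes with a Col-0 mean under 5, and 3.17% for the table. A share of 20% or more was found for 51 of the 91 genes (56%), 16 of the 62 (25.8%), 11.3% of the detected silent genes and 8.07% of the table. The nearest pseudogene was a median of 3885 bp away from the 91 genes and 29880 bp away over the table. Not all were so placed: 13 of the 91, among them HISN6B and AT5G15360, had a share at or below the median of the table.

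**Figure D4:**
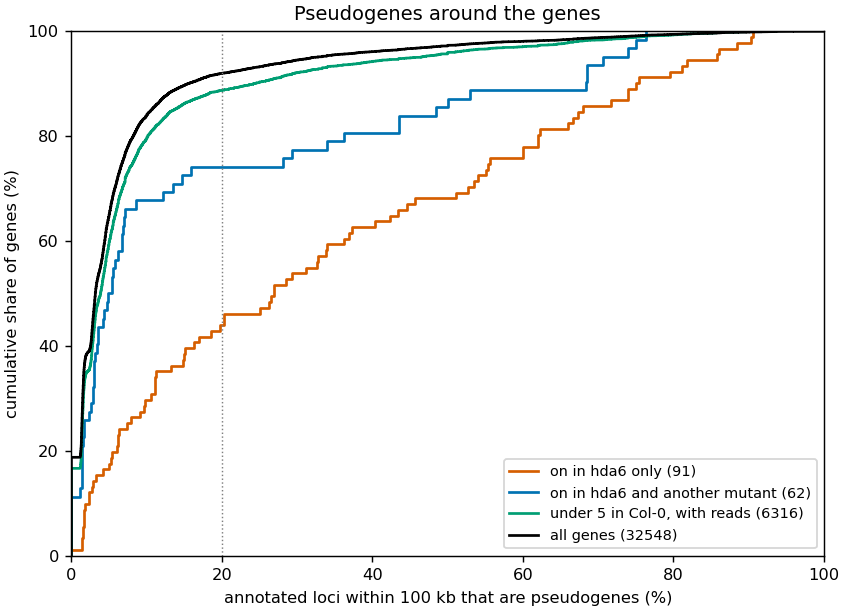
Cumulative share of genes (vertical axis) against the percentage of annotated loci within 100 kb that are pseudogenes (horizontal axis), for 4 groups of genes. The curve of the 91 genes lies below the others: 56% of them lie at or beyond the dotted line of 20%, against 25.8% of the 62 genes on in hda6 and another mutant.

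The classes differed in this share. Of the 18 non-coding RNAs 15 had a share of 20% or more, with a median of 33.4%, and of the 36 uncharacterized genes 21 did, with a median of 34.4%. The 20 other named proteins had a median of 10.1%, and 7 reached 20%. Gene structure was plain: the median exon length was 822 bases against 1368 over the table and 1206 for the 62 genes. It was 764.5 bases for the 6316 detected genes with a Col-0 mean under 5. The median number of exon blocks was 2, as in the 62 genes and the 6316, against 3 over the table. A single exon block was found for 36 of the 91 (39.6%), 37.1% of the 62, 47.0% of the 6316 and 31.0% of the table. Short genes of few exon blocks were thus not particular to the 91. GC content of the gene body had a median of 41.1%, against 38.9% over the table.

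The genes were spread over all chromosomes, with 20 on chromosome 1, 20 on chromosome 2, 17 on chromosome 3, 16 on chromosome 4 and 18 on chromosome 5. Another of the 91 lay within 100 kb of 44 of them. The same count was not taken for other groups of genes, so whether the 91 lie closer together than others was not tested. The densest run was on chromosome 3, where AT3G24514, AT3G24516, AT3G24517 and AT3G24542 lie within 20.3 kb (chr3:8937382-8957667, TAIR10.1). AT3G24516 and AT3G24517 lie within the span of AT3G24514 on the opposite strand and share no annotated exon bases with it. On chromosome 4, AT4G05275, AT4G07965 and AT4G05295 lie within 45.6 kb (chr4:4796764-4842389). Their values in hda6 were 283 and 284.5, 282 and 311.5, and 44.7 and 48.9. In gene order, 8 pairs were next to each other, among them AT1G36920 (169 and 156 in hda6) and AT1G36922 (120 and 146).

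The nearest genes of the table on each side, 162 in all that are not among the 91, were read from the fit of hda6 against Col-0 across all genes. That fit called 11.2% of 20846 tested genes higher and 12.5% lower at an adjusted p under 0.05, and it called all 91 genes higher, which follows from their choice. Of the 162 neighbours 93 passed the filter on low values, and 23 were called higher (24.7%) and 21 lower (22.6%). Neighbours that were silent in Col-0 could pass only through hda6 or another mutant, so those with a Col-0 mean of 5 or more are given apart. Of these 84 tested, 15 were higher (17.9%) and 21 lower (25%), with a median log2 fold change of -0.075. Over all tested genes with a Col-0 mean of 5 or more, 10.2% were higher and 12.8% lower. The shares were not tested against each other.

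The largest change among those expressed neighbours was in AT4G07995, an uncharacterized gene 298 bases from AT4G05295 on the same strand. It stood at 11.9 and 11.99 in Col-0 and 721 and 643 in hda6, a log2 fold change of 5.72 ± 0.26 (SE; limma adjusted p = 8.4e-09). In arid14 it stood at 61.99 and 67.7, so it was not silent outside hda6. AT2G40960, a gene for a single-stranded nucleic acid binding protein 32 bases from AT2G40955, rose by 1.0 ± 0.14 (SE) on the log2 scale, from 160 and 160 to 324 and 316.5 (limma adjusted p = 0.00018). In mbd124 it stood higher still, at 399 and 347. AT4G29190, a zinc finger protein gene beside AT4G29200, rose by 0.74 ± 0.07 (SE; limma adjusted p = 5.9e-06). Other neighbours fell. The cytochrome P450 gene AT5G25120 beside AT5G03925 fell by 0.84 ± 0.10 (SE) on the log2 scale (limma adjusted p = 6.3e-05), and the phosphofructokinase family gene AT4G04040 beside OFP9 fell by 0.59 ± 0.07 (SE; limma adjusted p = 2.6e-05). The genes next to the other repressor copies, AT3G54720 beside AT3G54730 and AT2G19860, a hexokinase gene, beside AT2G19850, fell by 0.58 ± 0.10 and 0.43 ± 0.09 (SE; limma adjusted p = 0.00064 and 0.0049). The call of AT2G19860 is lost without Col-0 replicate 2 (adjusted p = 0.055) or hda6 replicate 1 (0.053).

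**Figure D5:**
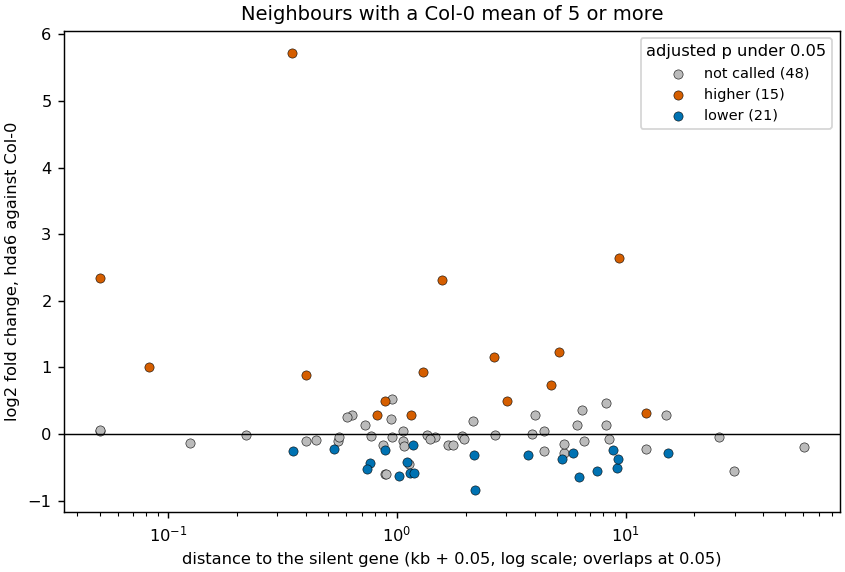
Log2 fold change in hda6 against Col-0 (vertical axis) of the 84 tested neighbours with a Col-0 mean of 5 or more, by their distance to the silent gene in kb on a log scale (horizontal axis), with orange for genes called higher and blue for genes called lower. The 15 higher genes include the widest changes, up to 5.72, while the 21 lower genes all lie above -1.

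The machinery of DNA methylation and silencing was read from the same fit, with 43 listed genes that were all tested. In hda6, 1 was called higher and 8 lower, beside 11.2% higher and 12.5% lower of all genes tested, and the median log2 fold change was -0.04, against -0.015 over all genes tested. IBM1, a demethylase that keeps histone H3 lysine 9 methylation out of genes, fell from 484 and 501.5 to 243 and 267.5, by 0.95 ± 0.09 (SE) on the log2 scale (limma adjusted p = 4e-06). ROS1, an enzyme that removes DNA methylation, fell from 1072 and 1016 to 667 and 562, by 0.77 ± 0.07 (SE; limma adjusted p = 3e-06). CMT3, a methyltransferase of non-CG sites, fell by 0.45 ± 0.08 (SE; limma adjusted p = 0.001), and MET1, DDM1, DMS3, MOM1 and MSI4/FVE by 0.25 to 0.48. Some of these falls were also seen in other mutants. The mean of MOM1 was 613.5 in Col-0, 514 in hda6 and 482 to 638 in the other mutants. In the same order MET1 had 708, 586 and 584 to 682, and CMT3 482, 350.5 and 370 to 487.5. IBM1 and ROS1 were lowest in hda6, with means of 255 and 614.5. In the other mutants they had 360 to 525 and 1220 to 1724. MORC6, a factor of chromatin compaction, was the 1 called higher, by 0.35 ± 0.11 (SE; limma adjusted p = 0.04). That call is lost without Col-0 replicate 1 (adjusted p = 0.26), without either hda6 replicate (0.18 and 0.12) and with DESeq2 (0.13). Of the 18 genes of RNA-directed DNA methylation, 1 was lower and none higher, beside the same shares over all genes tested.

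Markers of other organs were read in the same libraries. The 4 leaf markers were high in all 16 libraries, and 2 of them were called higher in hda6, LHCB1.3 by 0.41 ± 0.11 and LHCA1 by 0.38 ± 0.07 (SE) on the log2 scale (limma adjusted p = 0.018 and 0.002). These rises over Col-0 were not particular to hda6. The mean of LHCB1.3 was 132700 in Col-0, 176400 in hda6 and 190200 to 229700 in the other mutants. For LHCA1 these means were 59350, 77500 and 73680 to 97660. The 4 root markers summed to 1124 and 1175 in hda6 and 963 to 1459 elsewhere, and PHT1;1, a phosphate transporter gene, was called higher by 0.35 ± 0.09 (SE; limma adjusted p = 0.017). PHT1;1 had means of 505 in Col-0, 642 in hda6, 715 in hda19, 812 in rxt3 and 502 to 554 in the remaining mutants. The summed level of 7 pollen markers was 182 and 179 in hda6 and 103 to 166.5 in the other libraries. Of the 2 that could be tested, ANX1, a pollen tube receptor kinase gene, was called higher in hda6. Its log2 fold change was 0.70 ± 0.18 (SE; limma adjusted p = 0.014). The sum rested mostly on ANX1, with means of 85.2 in Col-0 and 138.5 in hda6. GEX1 was not called (limma adjusted p = 0.28), with means of 25.9 in Col-0, 36.7 in hda6 and 37.9 in esant12. VGD1, HAP2 and GEX2 had at most 3.035 in either hda6 library. DUO1 and MGH3, which define the male germ line, had no read in hda6. The other libraries had none either, but for 0.999 of DUO1 in Col-0 replicate 2. The 11 seed and endosperm markers summed to 86.1 and 44.9 in hda6 and 24.9 to 229 elsewhere; 5 of them could be tested and none was called. Among the untested, FUS3, a seed maturation regulator, had 12.2 and 9.98 in hda6, 1.99 and 3.0 in Col-0 and at most 9.28 in the other mutants. FWA, an imprinted homeodomain gene, had 7.1 and 4.99 in hda6, 0 and 0.999 in Col-0 and at most 2.03 in the other mutants. The rest of this list did not share that rise. MEA had 12.9 and 11.0 in Col-0 and 4.06 and 3.99 in hda6. PHE1 had means of 6.97 and 6.54, and AGL62 of 11.5 and 13.6, in the same order. CRA1 and CRU3 reached 30.4 and 8.09 in hda6 library 1 and 4.98 and 0 in library 2. OLEO1, SESA1, LEC1 and FIS2 had at most 2.02 in either hda6 library. The 6 flower markers summed to 86.3 and 73.9 in hda6 and 51.7 to 150 elsewhere. Of the 4 tested, only SEP3, a floral MADS-box factor, was called higher, from 23.9 and 36.0 in Col-0 to 66.0 and 53.9 in hda6. Its log2 fold change was 1.0 ± 0.24 (SE; limma adjusted p = 0.0089). The rest of the flower list did not share that rise. AG had means of 6.477 in Col-0 and 3.517 in hda6, PI of 13.95 and 12.59, and AP3 of 3.485 and 3.527. AP1 and A9 had at most 1.013 in either hda6 library. Means of SEP3 were 59.9 in hda6, 96.2 in hda19, 80.8 in rxt3, 74.8 in arid14 and 63.8 in sant1234. In mbd124 and esant12 they were 35.8 and 32.8. The calls of these markers other than LHCA1 are lost with single libraries left out: SEP3 without Col-0 replicate 1 or hda6 replicate 1 (adjusted p = 0.1 and 0.085), LHCB1.3 without any of the 4 libraries (0.058 to 0.17), and PHT1;1 and ANX1 without Col-0 replicate 1 (0.13 and 0.1), hda6 replicate 1 (0.058 and 0.086) or hda6 replicate 2 (0.13 and 0.072). The part of these organ markers in the values of the 91 genes was not tested.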

How the data were processed

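Per the submitters' processing notes, reads were mapped to TAIR10 with HISAT2 2.1.0, counted with featureCounts and handled with edgeR. The options used, the strand setting and the gene models are not given in the sources used here. The deposited values are a normalised signal, 1 column per library, and how they were normalised is not given in words. Of the values, 100% matched what edgeR's library-size adjustment gives for a whole read count, within a relative tolerance of 1e-06. The libraries held between 19259579 and 19522197 such reads, and 5616 of 32548 genes had none. Values were scaled before deposit, so differences in total RNA cannot be read from them.

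The 91 members, the gene lists, markers and tests were chosen with earlier results of these data known. The plan named limma for normalised values and edgeR only if the values were whole counts. The values being normalised, limma 3.58.1 with a trend (R 4.3.3) was used on log2(value + 1), so folds of low genes are understated. All 16 libraries of 8 genotypes entered 1 fit, for the 20846 genes that reached 10 in 2 or more libraries, with Benjamini-Hochberg adjustment over all of them. The procedure was tested on simulated data. Alternatives were another pseudocount, no filter, a replicate block, DESeq2 size factors, edgeR 4.0.16 and DESeq2 1.42.0 on the recovered reads, and each Col-0 and hda6 library left out with the tested genes kept. For the member count, other limits were tried and each of the 16 libraries was left out.

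All 32548 identifiers were matched by locus tag to the RefSeq annotation of TAIR10.1, the source of positions, products and sequences; 1 upstream sequence is not reported here. Pseudogene shares count annotated loci within 100 kb of a gene's midpoint. Unique windows are 50-base stretches of exons found once in the genome on either strand. Copies were found with blastn 2.17.0 (E value of at most 1e-10, at least 100 aligned bases). Named genes are those with the 12 highest and 3 lowest hda6 means, the 3 nearest outside each limit, members adjacent in gene order, members with a symbol, the 3 least alike between libraries, the 3 highest elsewhere, called silencing genes and HDA6. The text prints a selection. Members and relatives of the product classes, copies, the genes lying in the runs, the transposon-related genes, and the neighbours and organ markers named, were chosen after their values were seen.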

Additional observations from a re-analysis of the deposited data

How the results depend on the processing

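The number of genes passing the rule depends on the lower limit set for hda6: 59 genes passed with a mean of at least 50 and 145 with at least 10. With other limits, with recovered reads and with every single library past its limit, 74 to 90 passed, and without each of the 16 libraries in turn 90 to 93. The counts of called genes were 1551 higher and 1349 lower with DESeq2. Leaving out 1 Col-0 or hda6 library, 1164 to 1782 genes were higher and 1226 to 1797 lower; without Col-0 replicate 1 they were 1455 and 1482, without hda6 replicate 2 1164 and 1226, and without Col-0 replicate 2 1533 were lower. Of the 91 genes, 91 were called in each of these fits and 81 with DESeq2. The lone remaining library of a genotype is assumed there to vary like the others.

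Silencing genes called higher, 1 in the fit described, were 0 with no filter and with DESeq2, 3 with DESeq2 size factors and with edgeR, and 0 to 2 with a library left out. Those called lower were 4 with DESeq2 and 4 to 7 with a library left out, 4 without Col-0 replicate 1 and 5 without either hda6 replicate. Neighbours called higher were 14 with DESeq2 and 16 to 18 with a library left out, and those called lower 10 to 17, with 10 without Col-0 replicate 2 and 13 without hda6 replicate 2. With no filter beyond a read in 1 library, 34 neighbours were called higher, against 23 in the fit described. MORC6, AT2G19860, SEP3, LHCB1.3, PHT1;1 and ANX1 lost their calls as given above, MORC6 also with no filter (limma adjusted p = 0.052). The other 15 single genes followed kept their side of the threshold in all 10 alternatives. All of them but HISN6A, called in none of these and at -0.4 to 0.0 with a library left out, also kept their direction. The cause of these moves was not tested.

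The replicate numbers do not pair the samples: deviations correlated between -0.095 and 0.12 over 28 pairs of genotypes, over 0.1 in 3, and at 0.0092 between Col-0 and hda6. A fit with the replicate block called 2479 genes higher and 2770 lower, 91 of the 91 genes, and 2 silencing genes higher.

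With 2 libraries per genotype and 50-base reads, values of a few reads, overlapping genes and near-identical copies carry the largest uncertainty. The limits of 5 and 20 are arbitrary, and other ages and organs were not measured.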
